A study of Mus musculus with 6 samples.

Results

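The zinc finger protein genes that mouse chondrocytes express were compared between cells with and without Uhrf1. They were taken from the deposited gene table as the rows with a symbol of Zfp followed by a number, except Zfp36 and Zfp42, whose mean was at least 1 FPKM in either group. FPKM is the number of sequenced fragments of a gene per kilobase of transcript and per unit of library depth. The table held 331 such symbols among its 23351 genes, and 282 of them reached the threshold. Of the 282, 266 reached it in both groups, 12 in the knockout cells only and 4 in the control cells only. The other 49 stayed below it, 10 of them at 0 in every library. The members were thus selected on their FPKM level, so the levels themselves are a description. Differences were tested for the 266 genes expressed in both groups, because a gene that reached the threshold in 1 group only had to differ. A gene silent in 1 group cannot be among the 266, so their counts are read against all genes held to the same condition.

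The RNA came from primary chondrocytes of C57BL/6 mice, digested from knee cartilage on postnatal day 3. Confluent cultures of both genotypes received recombinant human BMP-2, a growth factor of the skeleton, at 100 ng/ml over 24 hours. Control mice gave 3 libraries and Uhrf1 conditional knockout (cKO) mice the other 3. The Cre driver, the allele of the controls and whether each library is 1 animal are not given in the sources used for this text, so p-values measure the spread between these libraries, which may be technical. Library names of the 2 genotypes also start with different numbers, whose meaning the labels leave out and whose effect cannot be told apart from that of Uhrf1.

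Most of the proteins these genes encode carry C2H2 zinc fingers, small loops that hold a zinc ion and read the bases of DNA. Many also carry a KRAB box, which recruits the corepressor Trim28 and, through it, the histone H3 lysine 9 methyltransferase Setdb1 and HP1 proteins, and so silences transposable elements and other targets. The genes multiplied by local duplication and many lie in clusters of similar copies. Uhrf1 binds hemimethylated DNA and histone H3 lysine 9 methylation and brings the maintenance DNA methyltransferase Dnmt1 to replicated DNA, which acts on many of the same silenced regions. The symbol alone does not prove a C2H2 protein: Zfp185, for example, is a LIM domain protein.

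Uhrf1 itself stood at 28.2, 22.9 and 30.6 FPKM in the control libraries and at 3.22, 3.17 and 2.73 in the cKO libraries, 8.96-fold lower (limma, adjusted p = 1.7e-06). Cartilage identity was present in both groups. Of 7 chondrocyte markers, led by Col2a1 at 7047 FPKM in control and 4675 in cKO, 6 were lower in cKO. The summed level of 6 skeletal muscle markers was 2.13 to 4.28 FPKM in the controls and 96.8 to 168 in cKO, and all 6 were higher. That of 5 macrophage markers was 9.79 to 49.5 and 12.1 to 19.1 FPKM, none of the 4 tested called. Lyz2, most of that sum, had a lower mean in cKO (25.5 and 9.65 FPKM), while Cd14, Csf1r, Cd68 and Ptprc had means 1.62- to 2.58-fold higher in cKO. The sum of 3 endothelial markers stayed under 1 FPKM (0.200 to 0.363 and 0.2996 to 0.943). The part of these markers in the differences below was not tested, and in bulk RNA fewer cells of a type and less RNA per cell cannot be told apart.

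As a group the zinc finger protein genes were expressed at low levels. Over the 266 genes expressed in both groups the median of the mean FPKM was 3.79, with quartiles of 2.17 and 6.48, while all 11050 tested genes held to the same condition had a median of 11.8. Only 9 of the 266 reached 20 FPKM, and 229 stayed under 10 FPKM. The controls differed among themselves by a median coefficient of variation of 16.2% for these genes and 11.9% for all genes, and the cKO libraries by 13.5% and 9.38%. By this measure the median was higher for members than for all genes, but the 2 sets were not matched for level.

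Few of them differed between the genotypes. With limma on log2(FPKM + 1) and an adjusted p under 0.05, 6 of the 266 rose and 3 fell in cKO, 3.38% in all. Of all 11050 tested genes expressed in both groups, 16.2% were called, 7.98% higher and 8.18% lower. Over all 11911 tested genes the share was 17.8%, with 9.81% higher and 7.96% lower. At an unadjusted p under 0.05 the shares were 33 of 266 members, or 12.4%, and 29.5% of all genes. The 3 control and 3 cKO values did not overlap for 47 members, 17.7% of them, with cKO higher in 32 and lower in 15. Among all genes they did not overlap for 34.6%, with cKO higher in 1824 and lower in 1996. These shares describe the list, and the difference between them was not tested. The authors' deposited table tested 156 of the 282 expressed members and called 18 of them, 9 higher and 9 lower, or 11.5%, beside 22.5% of all genes it tested that were expressed in both groups. By limma 2 members rose without Control 2, Control 3, cKO 2 or cKO 3 and 3 rose without cKO 1, and 1 fell without cKO 2 or cKO 3.

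The share called was also compared at like levels. The differences between the shares were not tested within any class. At 2 to 5 FPKM 4 of 119 members were called (3.36%) and 11.6% of all 2014 genes. At 5 to 10 FPKM it was 2 of 56 members (3.57%) and 14.8% of 2249 genes, and at 10 to 20 FPKM 2 of 28 members (7.14%) and 13.7% of 2469. At 1 to 2 FPKM none of 54 members and 2.29% of 656 genes were called by limma, and 2 members (3.70%) and 12.2% of genes had an unadjusted p under 0.05. Of 7 members at 20 to 50 FPKM 1 was called, beside 19.9% of all genes, and 3 (42.9%) had an unadjusted p under 0.05 in limma, beside 33.5%. Of 2 members above 50 FPKM neither was called, beside 29% of all genes, and neither had an unadjusted p under 0.05 in limma, beside 46.5%. The standard error of the difference was alike in both, with a median of 0.174 for members and 0.176 for all genes at 2 to 5 FPKM on the log2(FPKM + 1) scale. The median size of the difference, whatever its sign, was 0.17 and 0.23 in that class.

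**Figure D1:**
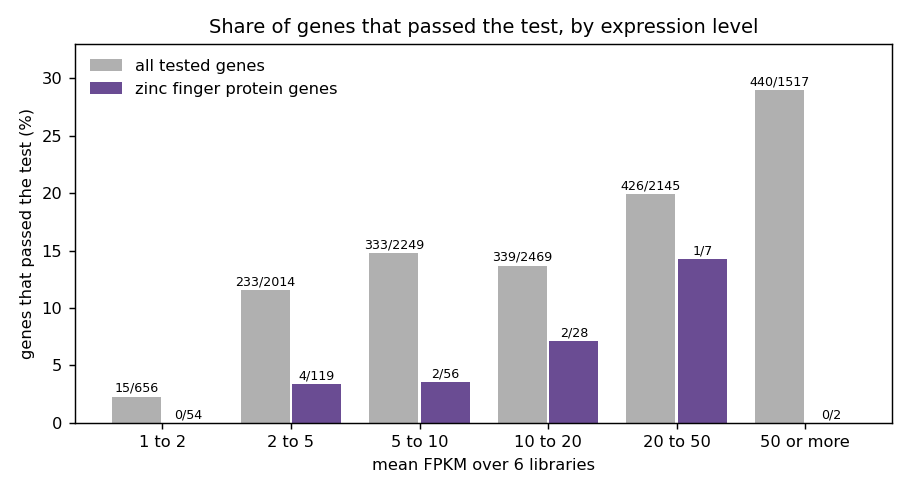
Percent of genes expressed in both groups that passed limma at an adjusted p under 0.05 (y axis), by mean FPKM over the 6 libraries (x axis), for all tested genes (grey) and for zinc finger protein genes (purple), with called and tested numbers above the bars. In the class of 2 to 5 FPKM the purple bar stands at 3.36% and the grey bar at 11.6%, and the 2 highest classes hold only 7 and 2 zinc finger protein genes.

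**Figure D2:**
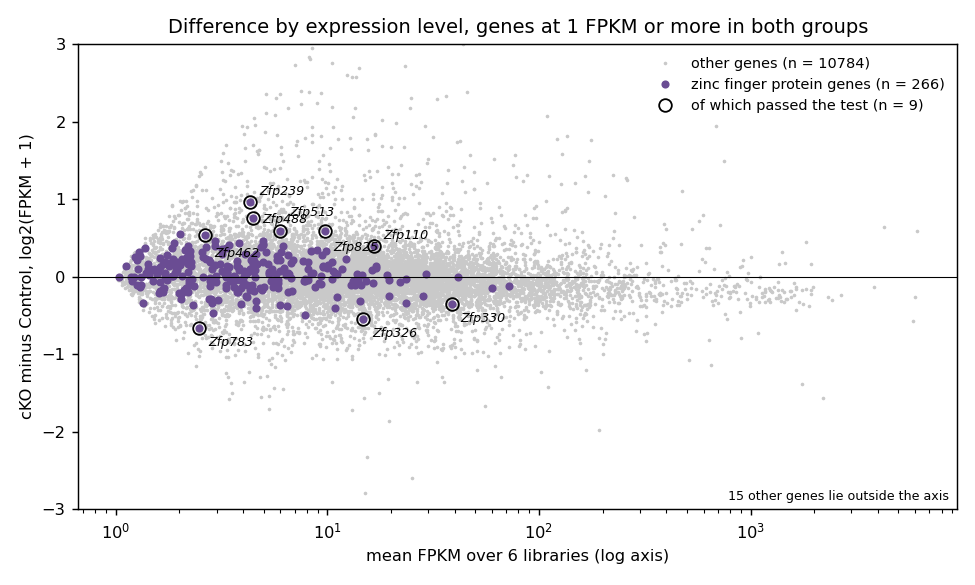
Difference between the group means, cKO minus Control on the log2(FPKM + 1) scale (y axis), against mean FPKM over the 6 libraries (x axis, log), for 10784 other genes (grey) and 266 zinc finger protein genes (purple), with the 9 that passed the test circled and named. Apart from Zfp239 and Zfp488 the purple points lie between -0.66 (Zfp783) and 0.59 (Zfp825), and 15 grey points lie outside the axis.

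The differences were small in size as well. The ratio of group means exceeded 1.5-fold in 14 of the 266 members (5.26%) and in 13.1% of all genes, and 2-fold in 1 member, Zfp239, and 4.11% of all genes. For 261 members (98.1%) the 95% interval of the difference, taken gene by gene, lay within 1 either side of 0 on the log2(FPKM + 1) scale. Among all genes this held for 90.9%. A narrower range of 0.5 either side of 0 contained the interval of 116 members (43.6%) and of 50.5% of all genes. This scale understates changes of low genes, and the members were lower than all genes (median 3.79 and 11.8 FPKM). The shares of intervals were not compared at like levels. The median difference was 0.04 among members and -0.01 among all genes, and 58.6% of members and 48.7% of all genes lay above 0.

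Zfp239, which encodes an RNA- and DNA-binding finger protein also called Mok2, had the highest ratio of means. It lies on the plus strand of chromosome 6 (117863077 to 117872766, mm10). Its FPKM was 2.13, 3.12 and 2.56 in the controls and 7.38, 5.25 and 5.48 in cKO. All 3 cKO values lay above all 3 control values. It rose 2.32-fold, from 2.60 ± 0.498 to 6.03 ± 1.17 FPKM (SD, n = 3 each; limma, difference 0.96 with a standard error of 0.171, adjusted p = 0.00470), and passed without any 1 library (adjusted p = 0.00823 to 0.0203). The next gene on the same strand, Zfp637 (117841242 to 117845956), was one of the highest members and stood at 59.7, 67.6 and 62.9 FPKM in the controls and 53.4, 58.6 and 59.6 in cKO. Its groups did not overlap either, with cKO lower, without passing the test (limma, adjusted p = 0.279).

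Zfp488, a gene known for a part in oligodendrocyte differentiation, followed. It lies on the minus strand of chromosome 14 (33967070 to 33978764). Its FPKM was 4.23, 2.66 and 2.38 in the controls and 5.33, 5.46 and 6.60 in cKO, with Control 1 standing well above the other two controls and no overlap between the groups. It rose 1.88-fold (limma, adjusted p = 0.0217), but leaving out Control 2, Control 3 or either of cKO 2 and cKO 3 ended the call (adjusted p up to 0.0894).

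Zfp462 encodes a large zinc finger protein that works with the H3 lysine 9 methyltransferase Ehmt1 and HP1 in heterochromatin (chromosome 4, 54947945 to 55083563, plus strand). It was 2.05, 2.32 and 1.57 FPKM in the controls and 3.63, 3.02 and 3.27 in cKO. The groups did not overlap. It rose 1.67-fold (limma, adjusted p = 0.0481), but leaving out any single library ended the call (adjusted p = 0.0609 to 0.144) and so did a pseudocount of 0.5 or 0.1.

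Zfp513, a gene known for a part in the retina (chromosome 5, 31198981 to 31202303, minus strand) stood at 3.35, 5.36 and 5.10 FPKM in the controls and 6.86, 8.66 and 6.56 in cKO. It rose 1.598-fold (limma, adjusted p = 0.0479), a call also lost without any 1 library (adjusted p = 0.0529 to 0.160). Zfp825 (chromosome 13, 74480057 to 74493950, minus strand) stood at 7.77, 8.04 and 6.64 FPKM and at 10.2, 15.3 and 10.4, with cKO 2 far above the other two cKO libraries. Its 1.59-fold rise (limma, adjusted p = 0.0328) passed without cKO 1 only and was lost without any other library (adjusted p up to 0.0926).

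Zfp110, also known as Nrif, encodes a partner of the neurotrophin receptor p75 (chromosome 7, 12834810 to 12850584, plus strand). It stood at 16.2, 13.03 and 13.7 FPKM in the controls and 19.9, 19.9 and 17.4 in cKO. The highest control and the lowest cKO value were close, and the rise of 1.34-fold (limma, adjusted p = 0.0398) was lost without any 1 library other than Control 1 (adjusted p up to 0.127).

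Of the 3 genes that fell, Zfp326 was called under every alternative tried. It encodes a subunit of the DBIRD complex, which links transcription by RNA polymerase II to alternative splicing (chromosome 5, 105876568 to 105915820, plus strand). Its FPKM was 20.01, 16.3 and 17.1 in the controls and 12.4, 11.5 and 11.5 in cKO, so the 2 groups lay apart by more than their own spread. It fell 1.51-fold, from 17.8 ± 1.94 to 11.8 ± 0.566 FPKM (SD, n = 3 each; limma, difference -0.55 with a standard error of 0.109, adjusted p = 0.00763). Without 1 library the adjusted p was 0.0147 to 0.0362.

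Zfp783 had the largest ratio among the falls (chromosome 6, 47943175 to 47965299, plus strand). It was 3.38, 2.94 and 3.47 FPKM in the controls and 2.04, 1.59 and 1.47 in cKO. It fell 1.92-fold (limma, adjusted p = 0.0191), a call lost without Control 3, cKO 2 or cKO 3 (adjusted p up to 0.0735). The table gives the same interval for Zfp956, which stood at 3.42 FPKM in both groups (limma, adjusted p = 0.967). How reads were shared between such a pair is not stated in the sources, so the split between Zfp783 and Zfp956 is uncertain.

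Zfp330, which encodes the nucleolar protein Noa36, is one of the highest members (chromosome 8, 82763620 to 82774126, minus strand). It was 50.3, 42.8 and 38.02 FPKM in the controls and 34.8, 33.03 and 33.2 in cKO. The control values were spread widely and all of them lay above the highest cKO value. The fall of 1.30-fold (limma, adjusted p = 0.0476) was lost without any 1 library other than Control 3 (adjusted p up to 0.135), after upper-quartile scaling and at a pseudocount of 0.1.

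**Figure D3:**
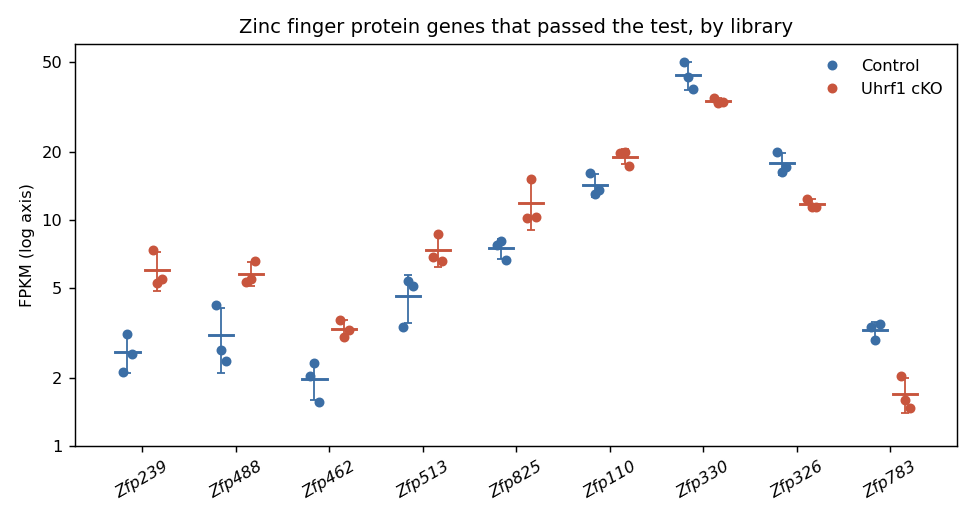
FPKM (y axis, log) of the 9 zinc finger protein genes that passed the test, for each of 3 Control (blue) and 3 cKO libraries (red), ordered by the ratio of means; horizontal lines are means and error bars SD. No gene has overlapping groups, and the gap is widest for Zfp239 and narrow for Zfp110 and Zfp330.

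Among the members that passed limma, the promoters of the pair with the largest rises and of the pair with the largest falls in the ratio of means are shown because Uhrf1 acts on methylated CpG, and these stretches differ in how many CpG they hold. Methylation was not measured here. The sequences are those of RefSeq (GRCm38.p6, the same coordinates as mm10), from 250 bases before to 50 after the start that RefSeq gives the gene, with CpG in capitals; CpG reads the same on both strands.
Zfp239, chr6:117862631-117862930, plus strand: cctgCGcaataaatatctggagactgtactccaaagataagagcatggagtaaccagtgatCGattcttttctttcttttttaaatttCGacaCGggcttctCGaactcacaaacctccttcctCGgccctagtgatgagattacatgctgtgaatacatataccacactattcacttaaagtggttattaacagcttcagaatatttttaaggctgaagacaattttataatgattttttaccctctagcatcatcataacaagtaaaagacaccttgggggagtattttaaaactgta
Zfp488, chr14:33978715-33979014, minus strand: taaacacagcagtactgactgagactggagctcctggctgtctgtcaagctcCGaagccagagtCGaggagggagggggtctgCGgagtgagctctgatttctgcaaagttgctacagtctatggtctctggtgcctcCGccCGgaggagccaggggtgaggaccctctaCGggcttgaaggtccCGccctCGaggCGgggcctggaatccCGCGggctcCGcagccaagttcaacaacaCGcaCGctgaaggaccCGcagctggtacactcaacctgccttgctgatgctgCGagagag
Zfp326, chr5:105876318-105876617, plus strand: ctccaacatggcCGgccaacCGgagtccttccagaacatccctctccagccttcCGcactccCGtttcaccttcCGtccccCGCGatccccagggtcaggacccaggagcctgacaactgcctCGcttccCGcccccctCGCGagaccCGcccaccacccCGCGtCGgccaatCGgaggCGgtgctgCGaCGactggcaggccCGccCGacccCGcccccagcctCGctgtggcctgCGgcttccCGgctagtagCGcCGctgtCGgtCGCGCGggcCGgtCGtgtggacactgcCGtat
Zfp783, chr6:47942925-47943224, plus strand: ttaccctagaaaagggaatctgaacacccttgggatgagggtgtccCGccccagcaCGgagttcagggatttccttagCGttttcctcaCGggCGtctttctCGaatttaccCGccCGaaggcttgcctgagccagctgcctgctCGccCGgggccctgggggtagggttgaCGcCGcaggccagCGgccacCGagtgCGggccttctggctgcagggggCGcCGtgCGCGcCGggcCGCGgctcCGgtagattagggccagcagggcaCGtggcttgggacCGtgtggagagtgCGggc
The promoter of Zfp239 held 6 CpG and that of Zfp488 16. Zfp326 held 34 and Zfp783 26. The other called members with a promoter did not keep this order. Zfp513, Zfp110 and Zfp825, which rose, held 19, 15 and 14 CpG, and Zfp330, which fell, held 15. The RefSeq start of Zfp239 lies 196 bases from the start of its deposited interval, and its stretch ends before that interval. Its CpG count may therefore not be that of the start used in the cells. For Zfp488, Zfp326 and Zfp783 the distance was 0. At least 1 CpG was in 94.6% of all promoters of this length in the table and in 99.7% of those of tested genes expressed in both groups. Of the latter, 7.62% held 6 or fewer and 15.8% held 34 or more.

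A promoter was found for 227 of the 282 expressed members, and for 213 of the 266 expressed in both groups. The ratio of observed to expected CpG, which corrects for base composition, had a median of 0.668 over the 213 and 0.791 over 8282 tested genes expressed in both groups. It was under 0.4, a CpG-poor promoter, for 29 members (13.6%) and for 828 of the 8282 genes. None of those 29 members was called, while 29.1% of all 292 genes with a ratio under 0.2 and 22.9% of 536 genes at 0.2 to 0.4 were. Members were called less often in the other classes as well. It was 1 of 52 members at 0.4 to 0.6 (19.9% of all genes) and 6 of 73 at 0.6 to 0.8 (14.7%). At 0.8 or more it was 1 of 59 (13.1%). So few members were called in each class that the classes cannot be compared with each other, and these differences were not tested. The 5 called risers with a promoter had ratios of 0.570 to 0.761 and the 3 that fell 0.721 to 0.947, within the range of the members not called (0.0679 to 1.195). With 8 called members these ratios describe single genes and were not tested.

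The members of known role were examined next, whether or not they changed. Among those that silence repeats or imprinted genes, Zfp57 and Zfp445 keep DNA methylation at imprinting control regions. Zfp57 varied widely, at 4.46, 3.16 and 2.80 FPKM in the controls and 6.82, 2.85 and 4.27 in cKO, so the groups overlapped (limma, adjusted p = 0.479; 95% interval of the difference -0.28 to 0.86). Zfp445 was steady, at 19.6, 19.5 and 17.5 FPKM and at 21.3, 18.1 and 18.2 (adjusted p = 0.922; -0.21 to 0.25). Its interval leaves room for only a small change on the log2(FPKM + 1) scale, unlike that of Zfp57.

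Zfp809 silences murine leukaemia viruses through their primer binding site. It stood at 9.81, 9.11 and 7.08 FPKM in the controls and 12.6, 10.5 and 10.1 in cKO. All cKO values lay above the controls, without passing the test (limma, adjusted p = 0.154). The table gives its interval as one that spans many genes of the locus, so its reads may not be separate from theirs. Zfp932, a repressor of endogenous retroviruses, was 7.05 ± 1.46 FPKM in control and 8.24 ± 1.11 in cKO (SD, n = 3 each; limma, adjusted p = 0.418). Zfp462, described above by its part in heterochromatin, was counted with them. Of these 5 genes 1, Zfp462, rose and none fell, beside 7.98% and 8.18% of all genes. That 1 call did not survive leaving out any library.

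Several members act in cartilage, bone or the limb. Zfp521 represses Runx2 activity and lies downstream of parathyroid hormone-related protein in growth plate chondrocytes. It stood at 13.9, 12.8 and 13.6 FPKM in the controls and 11.8, 12.4 and 12.9 in cKO, with groups that overlapped slightly (limma, adjusted p = 0.5005; 95% interval -0.33 to 0.11). Zfp219, a cofactor of the chondrocyte factor Sox9, was 2.04, 2.75 and 4.89 FPKM in the controls and 3.18, 3.45 and 3.74 in cKO (adjusted p = 0.748). The controls of Zfp219 spanned the whole range of the cKO libraries, and 3 other genes of the table overlap its interval.

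Zfp384, which binds promoters of matrix genes and restrains bone formation, was 16.2 ± 0.788 and 17.7 ± 2.56 FPKM (SD, n = 3 each; limma, adjusted p = 0.569). Zfp703 and Zfp503, related corepressors of development, stood at 15.6 ± 2.50 and 14.8 ± 0.460 FPKM and at 2.28 ± 0.620 and 2.89 ± 0.681 (limma, adjusted p = 0.784 and 0.449). Both overlapped between the groups. Zfp423, which binds Smad proteins of the BMP pathway and primes cells for the adipocyte fate, and Zfp467, a regulator of the choice between osteoblast and adipocyte, sat at the expression threshold. Zfp423 was 1.18, 1.195 and 1.04 FPKM in the controls and 0.990, 1.09 and 0.901 in cKO, and Zfp467 1.12, 0.918 and 0.596 and 0.700, 2.13 and 0.858. For both no test is given, since each reached 1 FPKM in 1 group only. Of the listed partner genes, Sox9, Runx2, Ebf1 and Smad1 were not called, while Pparg, the adipocyte regulator, fell 1.498-fold (limma, adjusted p = 0.0437). The cartilage collagen gene Col2a1, listed with them and not a partner, fell 1.51-fold (limma, adjusted p = 0.00764). Over all tested genes 7.96% were lower.

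Members with a general part in transcription came next. Their 6 differences had a median of 0.14, with 4 above 0. Zfp143, an activator at many promoters, was 5.94 ± 1.21 and 6.48 ± 1.28 FPKM, and Zfp148, which binds GC-rich promoters, 9.40 ± 0.797 and 8.80 ± 0.816 (SD, n = 3 each; limma, adjusted p = 0.728 and 0.672). Zfp281, a regulator of pluripotency genes, was 6.42, 5.55 and 5.42 FPKM in the controls and 6.93, 6.94 and 7.78 in cKO, groups that did not overlap, without passing (adjusted p = 0.160). Zfp217, a corepressor partner, Zfp335, a coactivator in neural progenitors, and Zfp516, an activator in brown fat, had adjusted p of 0.554, 0.487 and 0.803 in limma. None of these 6 genes was called, beside 3.38% of the members and 16.2% of all genes expressed in both groups.

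Members that work outside transcription include the highest of all. Zfp207, also called BuGZ, helps chromosomes attach to the spindle and had the highest level of any member. It stood at 78.2, 68.6 and 78.8 FPKM in the controls and 70.5, 69.7 and 66.9 in cKO (limma, adjusted p = 0.371). Zfp106, an RNA-binding protein needed by motor neurons and muscle, was 28.9 ± 1.01 and 29.6 ± 1.05 FPKM (SD, n = 3 each, limma, adjusted p = 0.827). Zfp146, a protein made almost wholly of fingers, is given here for its high level and not for a role outside transcription. Its level was 41.3 ± 4.47 and 41.2 ± 4.47 FPKM (SD, n = 3 each, limma, adjusted p = 0.977). The groups overlapped in each of these 3 genes.

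A pair of ligases lay lower in cKO without passing the test. Zfp91, a ubiquitin ligase, was 32.8, 30.9 and 29.3 FPKM in the controls and 25.99, 26.1 and 25.3 in cKO. Every cKO value lay below every control (limma, adjusted p = 0.0700). The table also lists a joint Zfp91 entry over the same interval. Zfp451, a SUMO ligase, was 6.55, 6.71 and 7.33 FPKM and 4.57, 5.93 and 4.82, again with no overlap (limma, adjusted p = 0.0875). The authors' deposited table called Zfp451 (q = 0.0454). Zfp598, which marks collided ribosomes with ubiquitin, and Zfp622, a factor of large ribosomal subunit assembly, had adjusted p of 0.709 and 0.890 in limma.

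**Figure D4:**
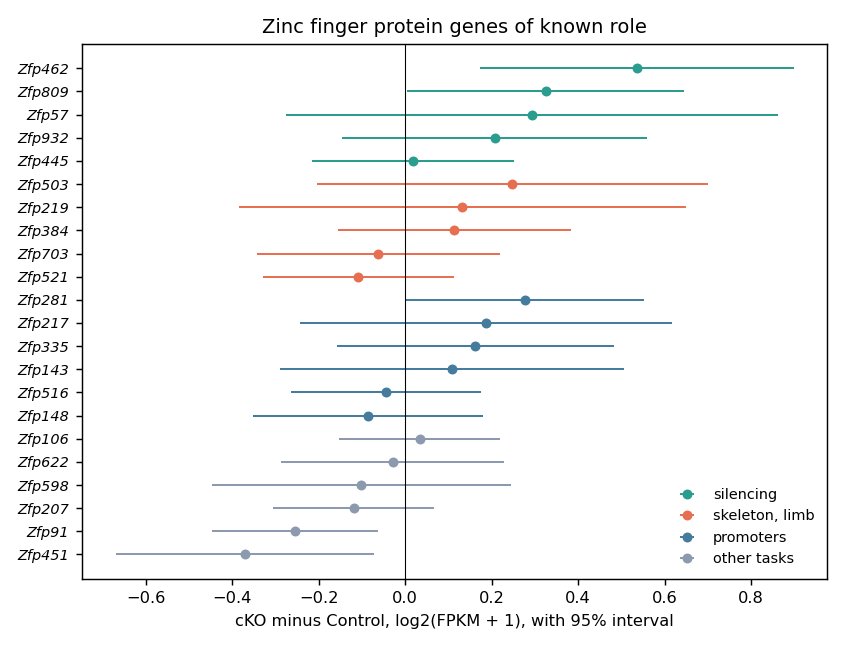
Difference, cKO minus Control on the log2(FPKM + 1) scale (x axis), with its 95% interval from limma, for the 22 zinc finger protein genes of known role that were expressed in both groups (y axis), coloured by role. The intervals of Zfp462, Zfp809 and Zfp281 lie wholly above 0, the last with its lower end at 0.000243, and those of Zfp91 and Zfp451 wholly below it, and only Zfp462 passed after adjustment over all genes.

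A further 11 members were called by the authors' deposited table and not by limma. Higher there were Zfp951, Zfp715, Zfp866 and Zfp646 (q = 0.0356, 0.00931, 0.00708 and 0.0184). Lower were Zfp101, Zfp131, Zfp948, Zfp867, Zfp367, Zfp451 and Zfp422, with q = 0.00931 to 0.0457 in the authors' deposited table. Zfp951 shows how the tests differ: it stood at 2.51, 2.20 and 2.03 FPKM in the controls and 4.36, 1.89 and 4.69 in cKO, so cKO 2 lay below every control. Zfp131 was 26.3, 22.7 and 30.1 FPKM in the controls and 18.7, 21.0 and 21.6 in cKO, with no overlap (limma, adjusted p = 0.076). The authors' deposited table and limma called 7 members in common, and 2 limma calls, Zfp462 and Zfp783, had no test there.

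Among members that reached 1 FPKM in 1 group only, which are given as values with no test, Zfp575 stood apart. It was listed at 0 in all 3 controls and at 4.22, 7.28 and 3.33 FPKM in cKO. The table gives Zfp575 and Ethe1, a mitochondrial sulfur dioxygenase gene, the same interval (chromosome 7, 24583838 to 24608926). GENCODE places Zfp575 on the minus strand at 24583838 to 24587641 and Ethe1 on the plus strand at 24587543 to 24608925, so their ends overlap. Ethe1 was 5.25, 6.64 and 5.41 FPKM in the controls and 7.73, 7.65 and 8.29 in cKO (limma, adjusted p = 0.0579). Both were higher in every cKO library than in any control, and whether the authors counted reads by strand is not stated in the sources, so the value of Zfp575 cannot be separated from its neighbour. An exact 0 in such a table can also be a failed estimate.

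The other 11 genes over the threshold in cKO only were low in both groups. Zfp455 was 0.123, 0.394 and 0.121 FPKM in the controls and 1.42, 0.762 and 0.906 in cKO. Zfp775 was 0.399, 0.341 and 0.707 and 1.199, 1.07 and 1.51, and Zfp697 0.499, 0.4001 and 0.615 and 1.37, 1.16 and 1.12. In 4 of the 11, these 3 and Zfp551, the groups did not overlap, beside 35.9% of all tested genes, and in the other 7 they did. Only a higher mean in cKO could put a gene among the 11. The 4 genes over it in control only were Zfp423, Zfp953, Zfp108 and Zfp112, all at means of 0.794 to 1.28 FPKM. Nearest above the threshold, by the higher group mean, were Zfp953 (1.02 FPKM), Zfp455 (1.03) and Zfp97 (1.05). Nearest below it were Zfp341 (0.994), Zfp30 (0.954) and Zfp458 (0.952).

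Expressed members lay on 20 chromosomes, with 72 on chromosome 7 and 36 on chromosome 17. Runs of these symbols with starts at most 500 kb apart formed 22 clusters of at least 3 expressed members, which held 150 of the 282. Neighbours in a cluster are often similar copies that can share reads. Of the 139 clustered members expressed in both groups 1 rose and 1 fell, Zfp110 and Zfp783, which is 1.44% beside 16.2% of all genes. Outside the clusters 5 of 127 rose and 2 fell (5.51%). The clustered members were also the lower ones, with a median of 3.11 FPKM against 4.89, and the difference between these shares was not tested.

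In no cluster did more than 1 gene pass the test. The cluster medians ran from -0.14 to 0.27 on the log2(FPKM + 1) scale, and 15 of 22 lay above 0. The largest cluster (chromosome 17, 21008941 to 23599487) had 20 expressed members, with 14 above 0 and 6 below, from -0.40 for Zfp948 to 0.43 for Zfp51, and none called. On chromosome 7 a cluster of 14 (29768552 to 30169727), which holds Zfp146, had 5 above and 9 below, all within -0.25 to 0.21. The chromosome 6 cluster of Zfp783 (47819266 to 48623227) had 7 of 8 members below 0, but the other 7 members lay between -0.21 and 0.17 and none of those was called. On chromosome 13 (67038594 to 67830985) 8 of 10 lay above 0, within -0.18 to 0.19, beside Zfp455. The X chromosome held 4 expressed members, Zfp182, Zfp185, Zfp275 and Zfp449, with adjusted p of 0.145 to 0.871 in limma.

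**Figure D5:**
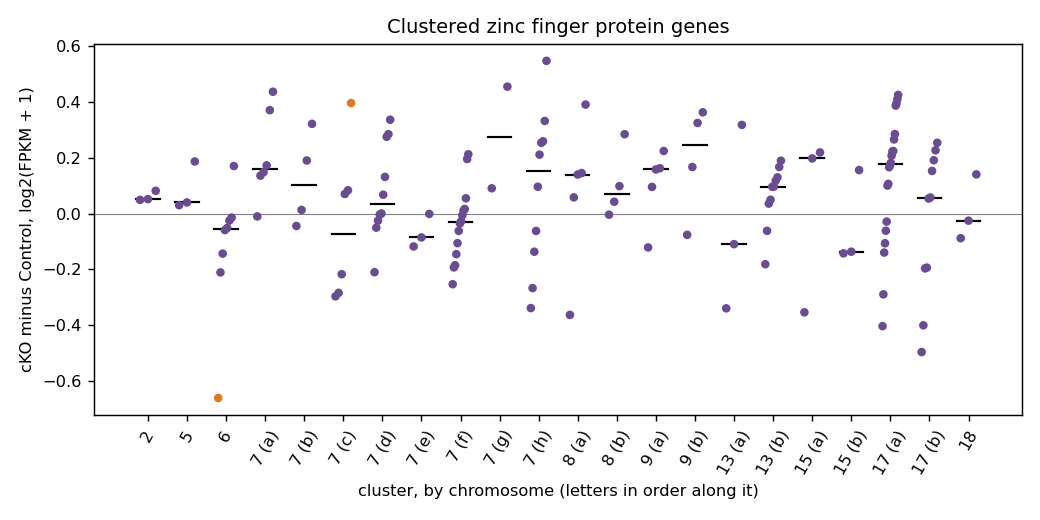
Difference, cKO minus Control on the log2(FPKM + 1) scale (y axis), of each clustered zinc finger protein gene expressed in both groups, in the 22 clusters ordered by chromosome (x axis), with the median of each cluster as a line and the 2 genes that passed the test, Zfp783 on chromosome 6 and Zfp110 on chromosome 7, in orange. Medians run from -0.14 to 0.27, and most clusters hold genes on both sides of 0.

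The RNA of a list of KRAB corepressor and H3 lysine 9 methylation genes was read beside that of the zinc finger protein genes. Of 25 tested corepressor and H3 lysine 9 methylation genes, 2 rose and 3 fell, and 20 were not called, beside 9.81% higher and 7.96% lower over all tested genes. Trim28, the central corepressor, was 67.8, 70.8 and 73.5 FPKM in the controls and 55.6, 65.3 and 59.3 in cKO. All cKO values were lower, without passing (limma, adjusted p = 0.0930). Setdb1 was 12.9 ± 1.19 and 11.9 ± 1.02 FPKM (SD, n = 3 each; limma, adjusted p = 0.575). The HP1 genes Cbx3 and Cbx5 fell 1.43- and 1.29-fold (limma, adjusted p = 0.0075 and 0.0376), and Cbx1 was 39.1 ± 2.55 and 31.5 ± 2.39 FPKM (adjusted p = 0.0530).

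Of the H3 lysine 9 methyltransferase genes, Suv39h2 was called higher and Suv39h1 lower, while Ehmt1, Ehmt2 and Setdb1 were not called (limma, adjusted p = 0.717, 0.564 and 0.575). Suv39h2 was 2.42, 2.61 and 2.06 FPKM in the controls and 6.93, 8.86 and 7.99 in cKO, 3.36-fold higher, and exceeded every zinc finger protein gene expressed in both groups in its fold. Its relative Suv39h1 fell 1.30-fold (limma, adjusted p = 0.0416). Daxx, a histone H3.3 chaperone, rose 1.37-fold (limma, adjusted p = 0.0209).

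Other families of finger proteins were read in the same way. Of 31 Zbtb genes expressed in both groups 2 rose, Zbtb38, a methyl-CpG binding protein, 1.61-fold and Zbtb20 1.58-fold, and none fell (limma, adjusted p = 0.00286 and 0.0441). Over all genes expressed in both groups 7.98% rose and 8.18% fell. Of 13 Klf genes 1 rose, Klf7, from 2.01 ± 0.923 to 5.02 ± 0.654 FPKM (SD, n = 3 each; limma, adjusted p = 0.0126). None of 8 Zscan and 8 Zkscan genes was called. The medians of the 4 families lay between 0.04 and 0.05 on the log2(FPKM + 1) scale, beside 0.04 for the Zfp genes.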

How the data were processed

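RNA was measured in 6 libraries, 3 Control and 3 Uhrf1 cKO. Per the labels' protocols, libraries were made from total RNA with a stranded mRNA kit, and per the series text they were sequenced on an Illumina MiSeq, mapped to mm10 with TopHat and analysed with Cufflinks. For the annotation, the versions and the strand setting, the record is silent (not given in the sources used). The deposited table holds FPKM by library and as group means. Per the file headers it also holds the authors' log2 fold change, their statistic (a score) and their p-value and q-value. Interval starts in the table count from 0, since adding 1 made 104 of 277 starts equal to those of RefSeq and leaving them as they are 9, so 1 was added.

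Genes with at least 1 FPKM in 2 libraries (11911) were fitted on log2(FPKM + 1) by limma 3.58.1, run under R 4.3.3, with eBayes set to trend and robust. Tests were two-sided, with Benjamini-Hochberg adjustment over all of them. This scale understates changes of low genes. Folds are ratios of mean FPKM. FPKM hold no counts, so absolute depth is unknown. Taking Control 1 as 1, the steps between low values put the relative depth of the others at 0.865 to 1.02. On simulated data of 11911 genes, the test recovered 55.2% of genes shifted by 0.5 and 100% of those shifted by 1 or 2 (log2). Of its 179 calls 9 were false. Only 67, 67 and 66 genes were shifted by 0.5, 1 and 2, far fewer than the 2116 called in the data. The noise was normal and depended on the level of the gene alone. These figures are thus not the power or error rate on the real data.

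The members, lists, roles and tests were chosen with earlier results of these data known. Named are all called members expressed in both groups (the rule allowed 10 each way), the 6 highest, 24 members of known role, those over the threshold in 1 group and the 3 nearest it on each side. Members called only in the deposited table, Zfp956, Ethe1, the extremes of clusters and the X-linked members were named after their values were seen. Domains of the proteins were not analysed here. Of the expressed members, 21 have an interval that overlaps another entry. Alternatives were other scalings, pseudocounts, filters, thresholds and member limits, the deposited test, a fit blocked on replicate number, and fits with each library left out in turn.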

Additional observations from a re-analysis of the deposited data

How the results depend on the processing

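The count of members called moved with the alternatives and was highest in the authors' deposited test. Of the members expressed in both groups, 6 rose and 3 fell. Without 1 library these counts ran from 2 to 5 and from 1 to 4, and those of all tested genes from 765 to 1095 higher and 503 to 931 lower (1168 and 948 with all libraries). With no expression filter 2 members rose. At an adjusted p under 0.01 the counts were 1 and 1 for members, Zfp239 and Zfp326, and 647 and 377 for all genes. The authors' deposited test called 18 of the 156 members it tested, 9 higher and 9 lower. Other settings kept all 4 counts within 1.5 times. Clusters numbered 19 at a largest gap of 250 kb and 23 at 1 Mb. Leaving out each library kept the calls of Zfp239 and Zfp326 and no other member's. With the replicate number as a block 5 members rose and 3 fell, with Zfp462 lost, and 1151 genes were higher and 946 lower. Same-numbered libraries did not deviate together in all pairs (r = 0.169, 0.0258 and -0.0443), and other-numbered pairs ran from -0.145 to 0.127. With 3 libraries per group these values cannot decide whether the numbers pair the libraries. Of the other settings tried on 32 named members, 434 gave the same call, 52 lost a call and 1 gained one (Zfp451 in the deposited test). Directions turned in 13, all of them genes near 0 that were never called. Zfp146 was 0.0142 after upper-quartile scaling. Without 1 library the differences ran from -0.0768 to 0.0817 for Zfp146, -0.0776 to 0.40 for Zfp219, -0.0693 to 0.00273 for Zfp516, -0.0448 to 0.22 for Zfp143, -0.056 to 0.0574 for Zfp445, -0.25 to 0.00555 for Zfp598, -0.0987 to 0.0184 for Zfp622 and -0.19 to 0.0213 for Zfp703. The 95% interval of 150 of the 266 members reached beyond 0.5 on one side of 0.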
